A study of Mus musculus with 121 samples.

Results

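A set of 9 leukocyte adhesion genes, out of the 23946 genes in the authors' expression table, were followed through single bone marrow cells. They are the integrin chains Itgam, Itgal, Itga4, Itgb2, Itgb1 and Itgb7, the adhesion receptor Vcam1, the selectin ligand Selplg and the hyaluronan receptor Cd44. They were chosen by name, for a change of adhesion genes between progenitor and Myelo states and for Vcam1 in Gran-1 and Gran-2, which had been seen in these same values. Members of this set were selected on measured expression, so their levels by state and by run are a description and carry no test.

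The cells came from C57BL/6 mice whose genotype is labelled Gfi1-R412X/- and, elsewhere in the labels, HTZ, so every cell carried the R412X allele of Gfi1, a transcriptional repressor needed for neutrophil formation. Unmutated cells are not analysed here, and the effect of the allele cannot be read from these values. A set of 46 cells is labelled CD11b+ GMP-P and shares the run name 073117. The 75 cells labelled GMP comprise 13 cells of late July runs (July31 and Jul31_2017, called late July GMP below) and 62 cells of run R412X-GMP (called other GMP). Marrow cells were enriched with CD117 beads, sorted, captured on the Fluidigm C1 and made into SMARTer cDNA, and the labels name no animal, so each population is 1 sample. Means are given ± SD over cells, which is the spread of single cells and no replicate error. No p-value was computed.

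Integrins are pairs of an alpha and a beta chain. Itgam encodes CD11b and Itgal encodes CD11a, and each pairs with the Itgb2 chain (CD18) to form Mac-1 and LFA-1, which bind ICAM proteins on endothelium and serve adhesion and phagocytosis of neutrophils and monocytes. Itga4 pairs with Itgb1 to form VLA-4, whose ligands are VCAM1 and fibronectin and which holds progenitors in the marrow, and with Itgb7 to form a receptor for the gut vessel ligand MADCAM1. Selplg encodes PSGL-1, on which leukocytes roll along selectins, and Cd44 encodes a receptor for hyaluronan that also carries selectin-binding glycans. VCAM1 is best known on endothelium, stromal cells and marrow macrophages.

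The promoters of Itgam, Itga4 and Itgb1 are shown because these chains lay at opposite ends of the change described below. Each line gives the 250 bases before the transcription start from RefSeq (GRCm38.p6, + strand, 5′ to 3′), which held such a sequence for 5 of the 9 genes. The positions are chr7:128062390-128062639 for Itgam, chr2:79255176-79255425 for Itga4 and chr8:128685404-128685653 for Itgb1. Capitals mark GAGGAA, the core letters of a PU.1 type ETS site, and GGGCGG, the letters of a GC box, on either strand (TTCCTC and CCGCCC where they read on the opposite one). The files' build is mm9, and these positions are of GRCm38.p6 only. No stretch of letters matched both.
Itgam: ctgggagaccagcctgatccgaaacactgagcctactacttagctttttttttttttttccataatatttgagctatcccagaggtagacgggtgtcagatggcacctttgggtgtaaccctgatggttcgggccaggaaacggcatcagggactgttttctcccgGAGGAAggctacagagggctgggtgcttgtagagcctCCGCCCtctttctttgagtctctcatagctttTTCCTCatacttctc
Itga4: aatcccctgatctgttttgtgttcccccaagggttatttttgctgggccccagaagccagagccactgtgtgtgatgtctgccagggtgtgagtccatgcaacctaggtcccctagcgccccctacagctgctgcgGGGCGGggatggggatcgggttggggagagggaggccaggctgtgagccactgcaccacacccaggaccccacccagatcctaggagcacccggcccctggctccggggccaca
Itgb1: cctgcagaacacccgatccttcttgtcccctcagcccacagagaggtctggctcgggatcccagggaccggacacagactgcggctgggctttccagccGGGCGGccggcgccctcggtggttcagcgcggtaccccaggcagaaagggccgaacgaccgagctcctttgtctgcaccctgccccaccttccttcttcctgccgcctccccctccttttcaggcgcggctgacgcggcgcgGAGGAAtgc
The Itgam window held GAGGAA at 2 places, starting 84 bases before the start on the gene's strand and 15 bases before it on the opposite strand, and a GC box 47 bases before it. The Itga4 window held a GC box at 114 bases and no GAGGAA, and the Itgb1 window held GAGGAA at 9 bases and a GC box at 151 bases. Of 32851 RefSeq promoter windows of the same length, 23.3% held GAGGAA, 32.7% held GGGCGG and 12.4% held TATAAA, which was in none of the 3 windows shown. These matches describe the letters and not the binding of a factor.

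The authors' second table names a state for every cell. In the order of the authors' state numbers, the states with 5 or more cells are cMoP (5 cells), Mono (38), MP (11), Gran-1 (14), Gran-2 (15), Myelo-1 (5), Myelo-2 (18) and Myelo-4 (10). HSCP-1, MDP and Myelo-3 hold 1 cell each and Multi-Lin holds 2. Levels are log2(TPM + 1), where TPM is an abundance relative to all transcripts and corrected for gene length, and a gene with at least 1 TPM counts as detected. Median detected genes per cell were 4657 in Mono, 4455 in MP, 4367 in Gran-1, 3760 in Gran-2 and 2070.5 in the 34 Myelo cells, and their part in lower detection was not tested. TPM is a share of each cell's transcripts, and 10 later neutrophil genes summed to a median of 439838.7 TPM in Myelo cells, against 179 TPM in MP cells. A list of 7 progenitor markers (Mpo, Elane and others) summed to a median of 2347.1 TPM in Myelo and 58429.9 TPM in MP, and all 7 were detected among the MP, Gran-1, Gran-2 and Myelo cells. State is tied to run: MP occurred only in other GMP, and Myelo only in the runs 073117 (24 cells) and late July GMP (10 cells). The labelled GMP cells are thus not alike, since Itgam, the gene of CD11b, was detected in 11 of the 13 cells from late July and in 5 of the 62 others.

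**Figure D1:**
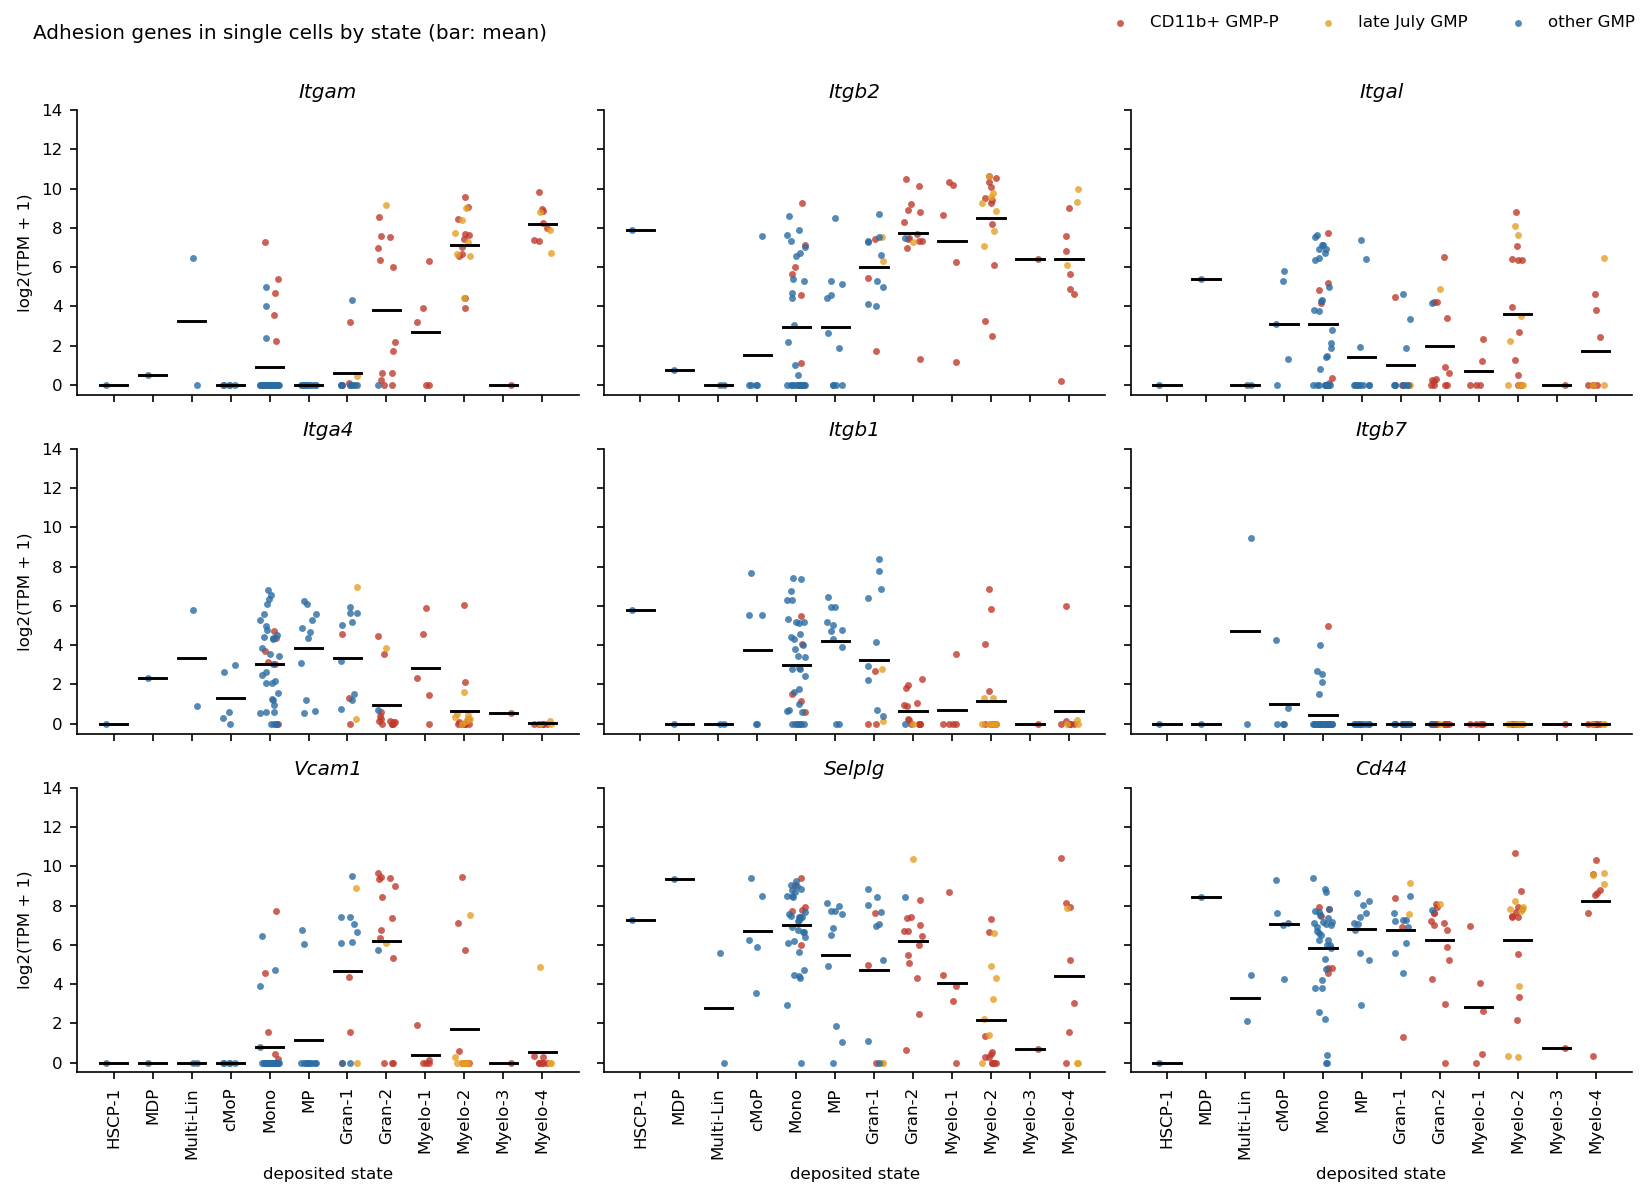
Level of each of the 9 adhesion genes in every cell, as log2(TPM + 1), by deposited state. Points are cells, coloured by run group, and bars are means. Itgam was at 0 in all 11 MP cells and at 3.90 or above in every Myelo-2 and Myelo-4 cell, while Vcam1 had its highest means in Gran-2 (6.19) and Gran-1 (4.65).

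Itgam had the widest span of means of the 9 genes over the states of 5 or more cells. It is listed at 0 in all 11 MP cells, which allows a share of cells with detected Itgam of up to 27.3%, and 2 of 14 Gran-1 cells (14.3%, exact 95% interval 1.78 to 42.8) had the transcript. Gran-2 was split, with 9 of 15 cells (60%, 32.3 to 83.7) detected, a median of 2.17 and a range from 0.00 to 9.15. Myelo-1 was split likewise, with 3 of 5 cells detected and a mean of 2.69 ± 2.71. All 18 Myelo-2 cells had Itgam, from 3.90 through a median of 7.36 to 9.54, and all 10 Myelo-4 cells had it, from 6.72 through 8.13 to 9.84. The Myelo-4 cells were thus all above every MP cell, and their mean of 8.20 ± 0.93 had the smallest SD among the states that expressed Itgam. The single Myelo-3 cell stood at 0. Ordered by mean, the states ran Myelo-4, Myelo-2, Gran-2, Myelo-1, Mono, Gran-1 and then MP and cMoP, and Myelo-4 and Myelo-2 lay within 1 SD of the more variable state, as did Gran-2 and Myelo-1.

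Itgb2, the beta chain that CD11b needs to reach the surface, was common in states where Itgam was rare. It was detected in 7 of 11 MP cells (63.6%, 30.8 to 89.1), in all 14 Gran-1 cells and in all 15 Gran-2 cells. Its level ran from 0.00 through a median of 2.66 to 8.48 in MP, from 1.71 through 6.46 to 8.71 in Gran-1 and from 1.30 through 7.50 to 10.47 in Gran-2. In the Myelo states it averaged 7.32 ± 3.81 in Myelo-1, 8.49 ± 2.38 in Myelo-2 and 6.42 ± 2.87 in Myelo-4. The ranges of MP and Myelo cells overlapped. By mean the order was Myelo-2, Gran-2, Myelo-1, Myelo-4, Gran-1 and then Mono with MP, and neighbours in it lay within the spread of their cells. Mono cells averaged 2.95 ± 3.27, with 20 of 38 cells detected, close to the MP mean of 2.95 ± 2.86.

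Itgal, the alpha chain of LFA-1, had no such order along the granulocytic states. It averaged 3.61 ± 3.27 in Myelo-2, 3.10 ± 2.49 in cMoP and 3.08 ± 2.94 in Mono, and between 0.71 and 1.98 in the other states of 5 or more cells. It was detected in 12 of 18 Myelo-2 cells, 23 of 38 Mono cells and 3 of 11 MP cells, and every state of 5 or more cells had cells at 0. SDs were close to the means or above them, so the order of the states is not resolved by these cells.

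The VLA-4 chains ran the other way. Itga4 was detected in 9 of 11 MP cells (81.8%, 48.2 to 97.7), 11 of 14 Gran-1 cells (78.6%, 49.2 to 95.3) and 29 of 38 Mono cells (76.3%, 59.8 to 88.6). Its level ran from 0.53 through a median of 4.67 to 6.26 in MP and from 0.00 through 3.90 to 6.98 in Gran-1. From Gran-2 on it was rare: 3 of 15 Gran-2 cells (20%, 4.33 to 48.1), 3 of 18 Myelo-2 cells (16.7%, 3.58 to 41.4) and 0 of 10 Myelo-4 cells, which allows up to 30%, had it. Myelo-1 was the exception, with 4 of 5 cells detected and a mean of 2.86 ± 2.37. Within CD11b+ GMP-P, Itga4 was detected in 2 of 3 Gran-1 cells (1.96 ± 2.36) and 2 of 13 Gran-2 cells (0.75 ± 1.48). The means of MP (3.87 ± 2.16), Gran-1 (3.37 ± 2.45) and Mono (3.03 ± 2.07) did not differ beyond the spread of their cells.

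Itgb1, the partner of Itga4 and of many other alpha chains, averaged 4.21 ± 2.21 in MP, 3.25 ± 3.01 in Gran-1 and 2.97 ± 2.37 in Mono. It averaged 0.63 ± 0.82 in Gran-2, 0.71 ± 1.60 in Myelo-1, 1.17 ± 2.16 in Myelo-2 and 0.63 ± 1.89 in Myelo-4. Gran-1 differed by run group, at 4.43 ± 3.04 in 9 cells of other GMP and 0.90 ± 1.56 in 3 of CD11b+ GMP-P. In 2 Gran-1 cells of late July GMP it was 1.47 ± 1.88. Gran-2 of CD11b+ GMP-P (13 cells) averaged 0.72 ± 0.84, so the pooled step of Itgb1 from Gran-1 to Gran-2 cannot be told apart from run. A few Myelo cells still carried it at progenitor levels, up to 6.84 in Myelo-2 and 6.00 in Myelo-4, so the ranges overlapped. Unlike Itga4, it was low in Myelo-1, where 1 of 5 cells had it. Itgb7, the alternative partner of Itga4, was detected in 6 of 38 Mono cells, 1 of 5 cMoP cells and 1 of 2 Multi-Lin cells (at 9.44), and was at 0 in all MP, Gran-1, Gran-2 and Myelo cells. For the 34 Myelo cells that zero allows a share of up to 8.82%.

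Selplg, the PSGL-1 gene, had its highest means on the monocytic side. It averaged 7.0 ± 1.94 in Mono and 6.71 ± 2.32 in cMoP, with 37 of 38 and 5 of 5 cells detected. MP cells ran from 0.00 through a median of 6.85 to 8.12, Gran-2 cells from 0.67 through 6.68 to 10.39 and Myelo-2 cells from 0.00 through 0.95 to 7.34. Among states of 5 or more cells its detection was lowest in Myelo-2, at 9 of 18 (50%, 26 to 74), and 7 of 10 Myelo-4 cells had it with a median among those cells of 7.88. Cd44 was the most widely detected of the 9 genes, found in 110 cells of both populations together (90.9%, 84.3 to 95.4). Its mean lay between 5.85 and 8.23 in every state of 5 or more cells other than Myelo-1, where it was 2.82 ± 2.85. Myelo-4 had the highest Cd44 mean, 8.23 ± 2.87, and MP and Gran-1 had 6.78 ± 1.65 and 6.74 ± 1.96.

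Vcam1 had its highest means in Gran-1 and Gran-2. It was detected in 10 of 14 Gran-1 cells (71.4%, 41.9 to 91.6) and 12 of 15 Gran-2 cells (80%, 51.9 to 95.7), with medians of 6.13 and 6.74 and highest values of 9.50 and 9.65. Elsewhere it was found in 2 of 11 MP cells (18.2%, 2.28 to 51.8), 6 of 38 Mono cells (15.8%, 6.02 to 31.3), 0 of 5 cMoP cells and 6 of 34 Myelo cells (17.6%, 6.76 to 34.5). Of the Gran-1 and Gran-2 cells with Vcam1, all but 1 Gran-1 cell (at 1.54) lay above 4, and the remaining cells were near 0, where all states overlapped. The Myelo-2 cells that had it reached 9.46, so the level in an expressing cell was not confined to Gran-1 and Gran-2. Both Gran states together had the gene in each run group, with means of 5.43 ± 3.89 in the 16 cells of CD11b+ GMP-P, 5.0 ± 4.55 in the 3 of late July GMP and 5.60 ± 3.13 in the 10 of other GMP. Gran-1 alone did not stand above Mono in CD11b+ GMP-P, where Vcam1 averaged 1.97 in 3 Gran-1 cells and 2.41 in 6 Mono cells.

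**Figure D2:**
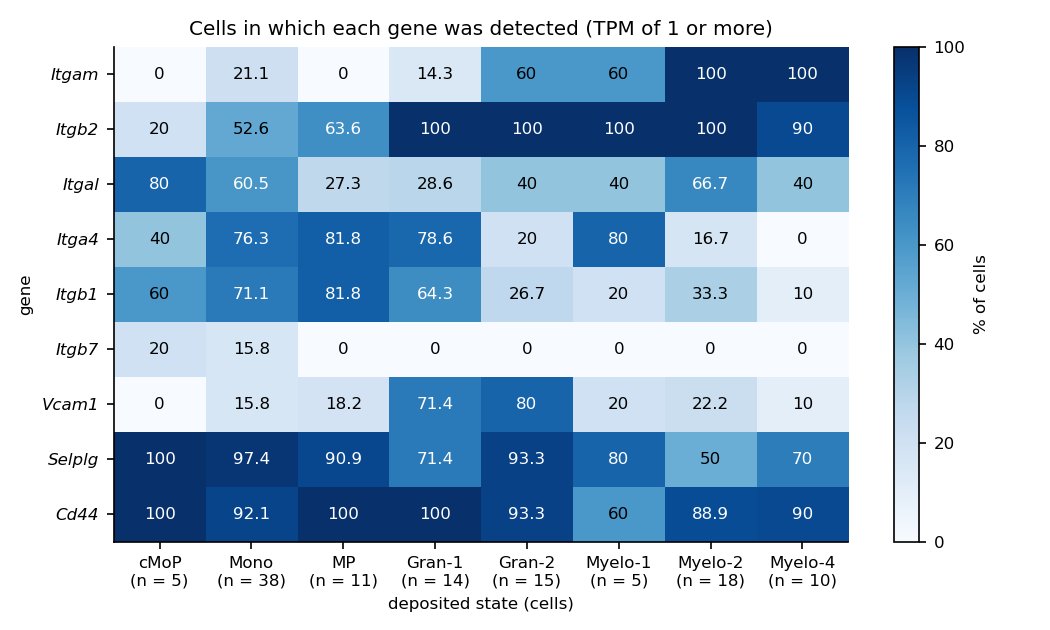
Share of cells, in %, in which each adhesion gene (rows) had a TPM of 1 or more, in each deposited state of 5 or more cells (columns). Itgam detection was 0 in MP and 100 in Myelo-2 and Myelo-4, Itga4 detection was 81.8 in MP and 0 in Myelo-4, and Vcam1 detection was 71.4 in Gran-1 and 80 in Gran-2.

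Myelo cells set against MP cells gave the whole span of the change. Differences are of mean log2(TPM + 1), over the genes that reached detection in 10% or more of the cells on at least 1 side, and a gene is counted from a difference of 1 on. Of the 8 members kept (Itgb7 was not), 3 were higher in Myelo, 3 were lower and 2 lay between. Of all 8556 genes kept, 4.50% were higher and 53.8% lower by that measure, and their median difference was −1.11. The states of this comparison are among those that chose the members, so nothing is read from the counts. Itgam averaged 6.58 ± 2.65 in Myelo and 0.00 ± 0.00 in MP, a difference of 6.58 that is no fold, since MP is listed at 0. Itgb2 averaged 7.65 ± 2.80 in Myelo and 2.95 ± 2.86 in MP, a difference of 4.70, and Itgal was higher in Myelo by 1.09. Itga4 averaged 0.79 ± 1.62 in Myelo and 3.87 ± 2.16 in MP (−3.08), and Itgb1 0.91 ± 1.94 in Myelo and 4.21 ± 2.21 in MP (−3.30). Selplg differed by −2.40, Cd44 by −0.62 and Vcam1 by −0.04. As a log2 ratio of mean TPM, Cd44 was at 0.86 and Vcam1 at 1.07, so the sign of both depended on the scale. By that ratio Selplg was at −0.48 and Itgal at 0.92, both under 1 in size. The Myelo cells of CD11b+ GMP-P and of late July GMP had Itgam at 6.26 ± 3.0 and 7.35 ± 1.36 and Itgb2 at 7.15 ± 3.10 and 8.84 ± 1.41. Itga4 was at 0.97 ± 1.89 and 0.34 ± 0.48 and Itgb1 at 1.17 ± 2.25 and 0.28 ± 0.54. Myelo and MP cells shared no run, so state and run cannot be told apart here, and the steps below stay within a run.

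Between Gran-1 and MP, both of run R412X-GMP (9 and 11 cells), Vcam1 and Itgb2 differed by 1 or more in mean log2(TPM + 1) and the other members kept by less. Of 8 members kept, 2 were higher in Gran-1 by 1 or more and 0 were lower, where 21.4% of all kept genes were higher and 9.0% lower. Vcam1 averaged 5.59 ± 3.32 in Gran-1, which is 4.42 above MP. Itgb2 averaged 6.21 ± 1.66 in Gran-1, from 4.04 through 6.62 to 8.71, which is 3.26 above MP. The other 6 members kept, Itga4 and Itgb1 among them, differed by less than 0.5 in either direction. Itga4 averaged 3.79 ± 2.13 in Gran-1 and 3.87 ± 2.16 in MP, and Itgb1 4.43 ± 3.04 in Gran-1 and 4.21 ± 2.21 in MP. Itgb1 was not level by mean TPM, which was 86.5 in Gran-1 and 32.9 in MP (a log2 ratio of 1.4), and Itgal was at −2.52 by that ratio, while Itga4 was at −0.10.

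Mono set against MP in the same run (32 and 11 cells) differed in other members. Itgal was higher in Mono by 1.52 and Selplg by 1.33, while Itgb1 was at −1.08 and Cd44 at −1.01. That makes 2 higher and 2 lower of 8 kept, with 13.4% higher and 8.87% lower among all kept genes. As a log2 ratio of mean TPM, Itgal was at 0.82, Selplg at 0.67, Itgb1 at −0.25 and Cd44 at −0.36, all under 1 in size. By that ratio Vcam1 was at −1.98. The differences of Mono and of Gran-1 share the same MP cells. Gran-1 set directly against Mono (9 and 32 cells) had Vcam1 at 5.09, Itgb2 at 3.76, Itgb1 at 1.30, Cd44 at 1.01 and Itgal at −1.86, which is 4 higher and 1 lower of 9, beside 16.5% and 7.62% of all kept genes. No Gran-1 cell of the run was below 4.04 for Itgb2, whereas the 32 Mono cells had a median of 0.00 and a highest value of 8.61, so the ranges overlapped above 4.04.

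Within CD11b+ GMP-P, run 073117, Myelo cells (24) were set against Gran-2 cells (13). Itgam was higher in Myelo by 2.55 and Vcam1 was lower, at −5.17, as was Selplg, at −2.60. That is 1 higher and 2 lower of 8 members kept, where 2.63% of all kept genes were higher and 45.7% lower, their median difference being −0.89. For Itgam the Myelo cells ran from 0.00 through a median of 7.35 to 9.84 and the Gran-2 cells from 0.00 through 2.17 to 8.56. For Vcam1 the Myelo cells ran from 0.00 through 0.00 to 9.46 and the Gran-2 cells from 0.00 through 7.36 to 9.65. The 2 states overlapped for both genes, with the higher median in Myelo for Itgam and in Gran-2 for Vcam1. Itga4 differed by 0.23 and Itgb1 by 0.45, from low levels in Gran-2 (0.75 ± 1.48 and 0.72 ± 0.84). Several differences depended on the scale. As a log2 ratio of mean TPM, Selplg was at 0.23, Itgb1 at 3.51, Itgal at 1.83, Itga4 at 1.33 and Cd44 at 1.28.

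Gran-2 set against Mono within the same run (13 and 6 cells) had Vcam1 at 3.83 and Itgb2 at 2.17. Itga4 was lower in Gran-2 (−2.42), as were Selplg (−2.28), Itgal (−2.14) and Itgb1 (−1.42). In counts, 2 of 9 were higher and 4 lower, and 11.8% and 31.3% of all kept genes were. Itga4 averaged 0.75 ± 1.48 in Gran-2 and 3.17 ± 1.68 in Mono of this run, and this difference was not tested.

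**Figure D3:**
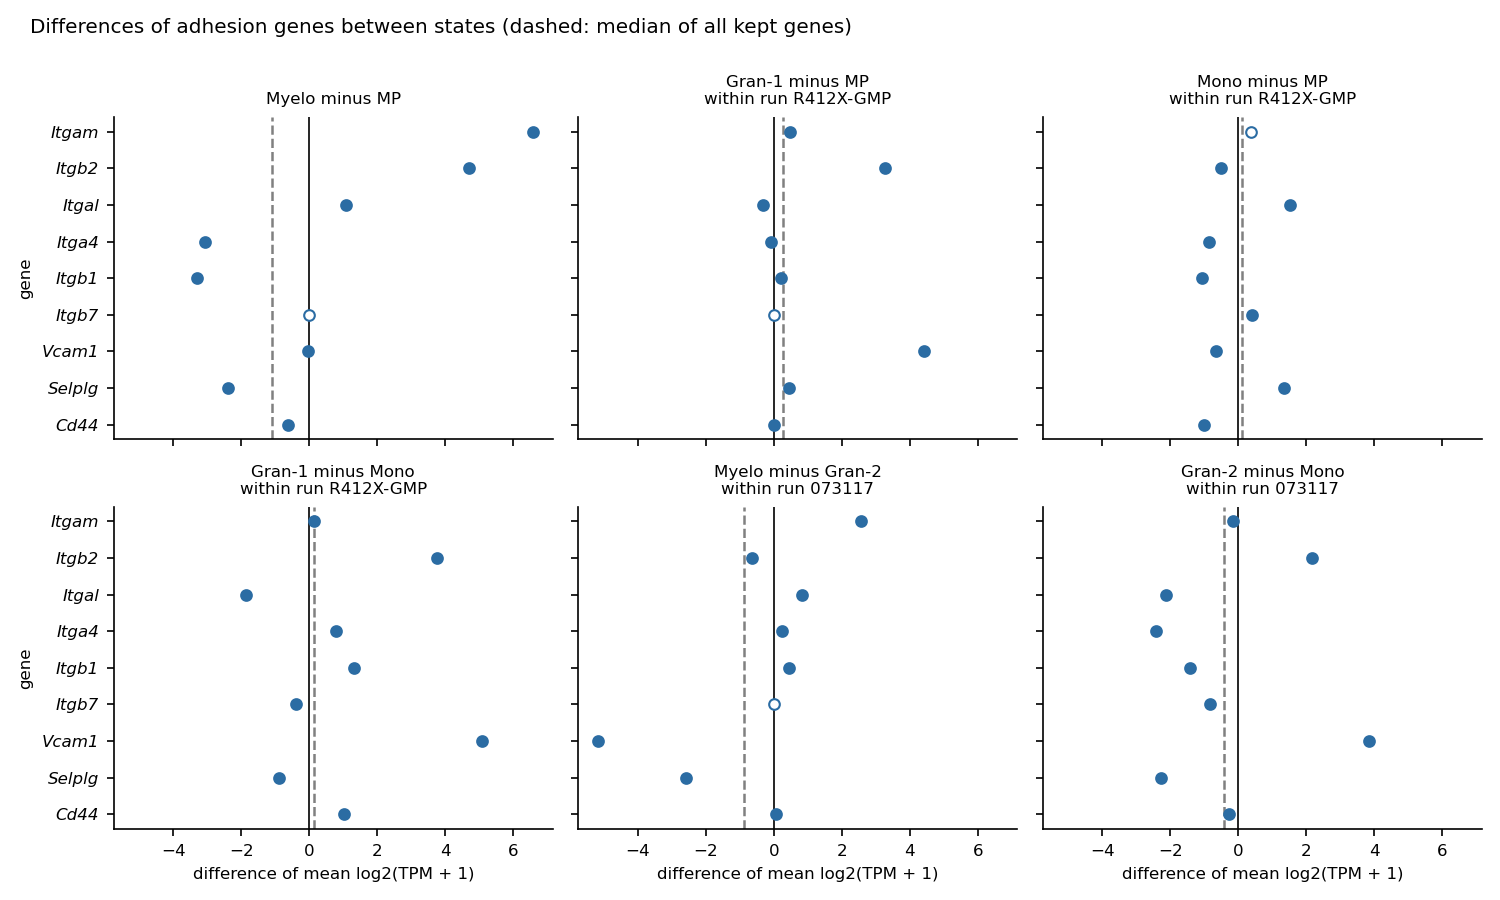
Difference of mean log2(TPM + 1) of each adhesion gene in 6 comparisons, first-named state minus second. Open circles are genes under the detection filter, and the dashed line is the median of all kept genes. Itgam reached 6.58 in Myelo minus MP and Vcam1 was at −5.17 in Myelo minus Gran-2.

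The same state could be compared across run groups with 5 or more cells on each side in 2 cases. Mono cells of CD11b+ GMP-P (6 cells) and of other GMP (32 cells) differed in Itgam by 3.50, in Itgb2 by 3.18, in Vcam1 by 1.91 and in Selplg by 1.16. Itgam ran from 0.00 through a median of 4.12 to 7.30 in Mono of CD11b+ GMP-P, and from 0.00 through 0.00 to 5.0 in Mono of other GMP. Itgam is the gene of the antigen in the label CD11b+, and the part of the sort in this difference was not tested. Of 9 members 4 were higher and 0 lower, beside 17.5% and 17.8% of all kept genes. Itga4 was alike in both, at 3.17 ± 1.68 in CD11b+ GMP-P and 3.01 ± 2.16 in other GMP, and 6 of the 8 Mono cells with Itgam had it as well.

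Myelo-2 cells of CD11b+ GMP-P (11 cells) and of late July GMP (7 cells) differed little in Itgam, which averaged 7.12 ± 1.74 and 7.15 ± 1.5 (a difference of −0.04). Cd44 was higher in CD11b+ GMP-P by 1.75 and Itgb1 by 1.30, and Selplg differed by −1.71, which became 0.09 as a log2 ratio of mean TPM. Those are 2 higher and 1 lower of 8 members kept, and 11.4% and 23.1% of all kept genes. Over all cells of each label, CD11b+ GMP-P minus GMP gave 3.48 for Itgam, 2.99 for Itgb2, −1.46 for Itga4 and −1.73 for Itgb1. Against late July GMP alone these were −1.5, −1.44, 0.14 and 0.71, so the pooled signs turned. Vcam1 kept its sign, at 1.26 pooled, 0.63 with late July GMP as the other side and 1.39 with other GMP.

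Counting the chains that pair in each cell showed in which states both chains of a pair were detected. Itgam and Itgb2 were detected together in 0 of the 11 MP cells and 2 of the 14 in Gran-1. They were together in 9 of the 15 in Gran-2 and 30 of the 34 in Myelo (88.2%, 72.5 to 96.7). Within CD11b+ GMP-P these were 1 of 3 Gran-1, 8 of 13 Gran-2 and 20 of 24 Myelo cells. Of the Mono cells, 3 of 32 in other GMP and 5 of 6 in CD11b+ GMP-P had both, so the pooled step is tied to run. In Gran-1 and Gran-2 every cell had Itgb2, so that those with Itgam had it too says nothing about pairing. Of the 14 Gran-1 cells, 12 had Itgb2 without Itgam. Over all states, 42 cells had Itgb2 without Itgam and 2 had Itgam without Itgb2. Itga4 and Itgb1 were detected together in 23 of 38 Mono cells, 7 of 11 MP cells (63.6%, 30.8 to 89.1), then in 7 of the 14 in Gran-1, 0 of the 15 in Gran-2 and 1 of the 34 in Myelo (2.94%, 0.0744 to 15.3). By run group, the Gran-1 cells with both were 6 of 9 in other GMP, 1 of 3 in CD11b+ GMP-P and 0 of 2 in late July GMP. Itga4 with Itgb7 was seen in 6 of 38 Mono cells and in no cell of another state. Itgam and Itga4 were detected in the same cell in 6 of the 38 Mono cells, and in 2 of the 15 in Gran-2 and 5 of the 34 in Myelo.

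Itgb2 made up nearly all of the beta chain transcripts in Gran-2 and Myelo cells. Of the summed TPM of Itgb1, Itgb2 and Itgb7 in a cell, Itgb2 made up 38.5 ± 38.2% in MP (10 cells with a chain), 79.9 ± 23.4% in Gran-1, 99.6 ± 0.7% in Gran-2 and 98.4 ± 4.9% in Myelo (33 cells). It made up more than 50% in all 15 Gran-2 cells and in 4 of 10 MP cells. Gran-1 differed by run and by measure. In other GMP, the run group of MP, its mean share was 69.4 ± 23.3%, and in summed TPM over those cells Itgb2 made up 58.8% in Gran-1 and 57% in MP. In Gran-1 of CD11b+ GMP-P (3 cells) the Itgb2 share was 99.0 ± 1.8%, and in late July GMP (2 cells) 98.4 ± 2.1%. Gran-2 of CD11b+ GMP-P (13 cells) had 99.6 ± 0.7%. Of the alpha chains Itgam, Itgal and Itga4, Itgam made up 0.0% in MP, 11.5 ± 29.5% in Gran-1 and 66.6 ± 40.2% in Gran-2. It made up 40.7 ± 42.8% in Myelo-1, 76.0 ± 32.2% in Myelo-2 and 94.6 ± 14.1% in Myelo-4. Itga4 made up 74.9% in MP, 80.4% in Gran-1, 5.5% in Gran-2, 45% in Myelo-1 and 1.1% in Myelo-2. A share within a cell does not depend on the cell's total, but a missed transcript still counts as 0 in it.

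**Figure D4:**
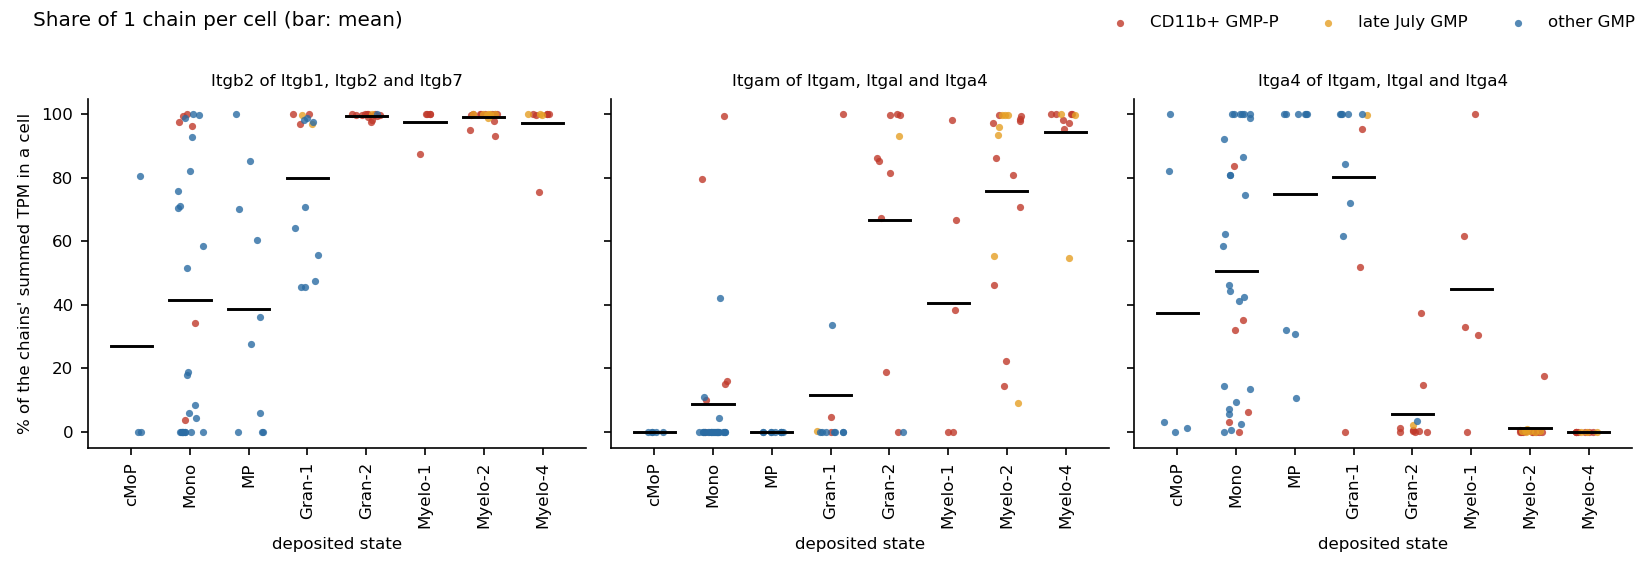
Share of a chain in the summed TPM of the named chains, in % per cell, by deposited state. Points are cells with at least 1 of the chains, coloured by run group, and bars are means. With run groups pooled, the Itgb2 share averaged 38.5 in MP and 99.6 in Gran-2, and the Itga4 share 80.4 in Gran-1 and 5.5 in Gran-2.

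Vcam1 was found together with its receptor chain in fewer cells of Gran-2, where Itga4 was rare, than of Gran-1. Vcam1 and Itga4 were detected in the same cell in 2 of 15 Gran-2 cells (13.3%, 1.66 to 40.5) and 7 of 14 Gran-1 cells (50%, 23 to 77). By run group, the Gran-1 cells with both were 6 of 9 in other GMP, 1 of 3 in CD11b+ GMP-P and 0 of 2 in late July GMP. In Gran-2 of CD11b+ GMP-P, 1 of 13 cells had both, so the contrast is tied to run. Of the cells with Itga4, 2 of 3 in Gran-2 and 7 of 11 in Gran-1 had Vcam1. Vcam1 and Itgam were detected in the same cell in 8 of 15 Gran-2 cells (53.3%, 26.6 to 78.7) and 2 of 14 Gran-1 cells (14.3%, 1.78 to 42.8). Within CD11b+ GMP-P these were 7 of 13 Gran-2 cells and 1 of 3 Gran-1 cells. All 6 Mono cells and both MP cells with Vcam1 had Itga4, and all 6 Myelo cells with Vcam1 had Itgam.

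Since macrophages and vessel or stromal cells carry VCAM1, their markers were read in the same cells. Slc40a1 and Lepr are named among them after their values were seen. Of the 22 Gran-1 and Gran-2 cells with Vcam1, 0 had C1qa, C1qb, C1qc, Cd5l, Spic, Mertk, Cd163 or Siglec1. Emr1 was found in 1 and Hmox1 in 2. Slc40a1, the iron exporter, was found in 17 of these 22 cells and in 4 of the 7 Gran cells without Vcam1. The 11 macrophage markers summed to between 0 and 12.8 TPM in MP, 0 and 339 in Gran-1 (median 7), 0 and 707 in Gran-2 (median 235) and 0 and 881 in Myelo (median 33.5). Of 9 endothelial and stromal markers, Cdh5, Kdr, Tek, Emcn, Pdgfra, Col1a1 and Kitl were in 0 of the 22, Lepr was in 14 of 22 against 4 of 7 without Vcam1, and Pdgfrb was in 1. That list summed to between 0.3 and 31.5 TPM in MP, 0.25 and 18.2 in Gran-1 and 0 and 12.9 in Gran-2. All 22 cells, and all 7 Gran cells without Vcam1, had Mpo, Elane, Prtn3 and Ctsg, the genes of primary granule proteins. Of the other progenitor markers, Fcgr3 was in all cells of both sets. Cd34 was in 12 of 22 against 6 of 7 without Vcam1, and Kit in 12 of 22 against 3 of 7. The part of other cell types in the Vcam1 values was not tested beyond these markers.

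**Figure D5:**
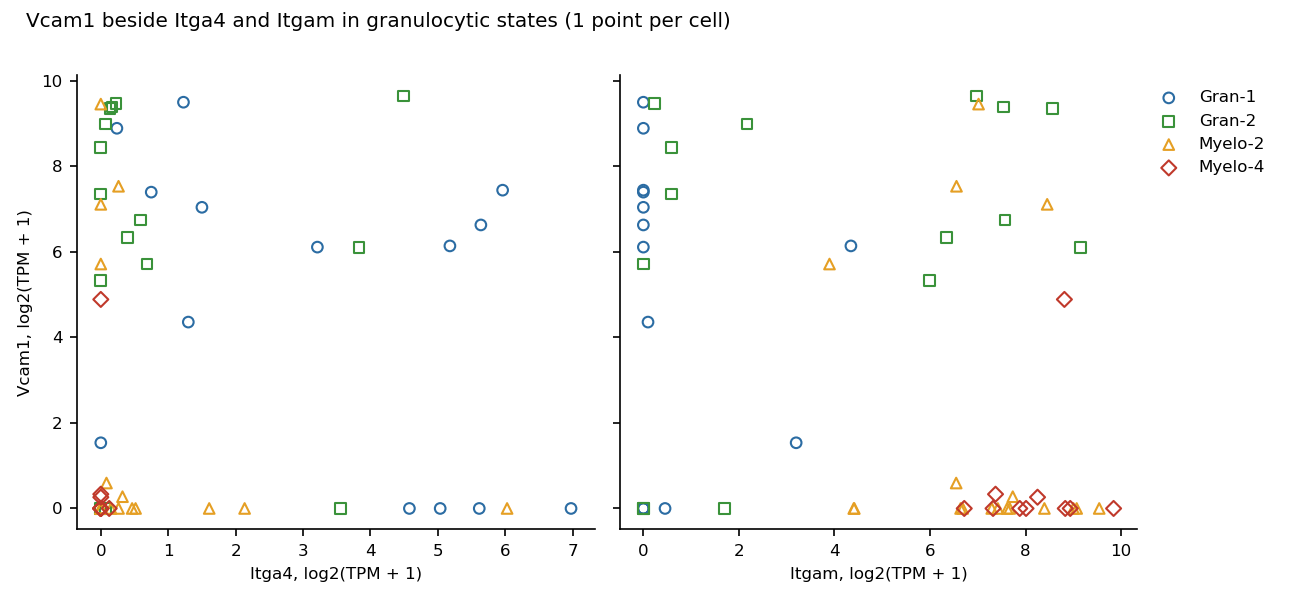
Vcam1 against Itga4 (left) and Itgam (right) in Gran-1, Gran-2, Myelo-2 and Myelo-4 cells, as log2(TPM + 1), with 1 point per cell. Most Gran-2 cells with Vcam1 lie near 0 for Itga4, and 8 of the 15 Gran-2 cells have both Vcam1 and Itgam.

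The genes whose levels ran most like each chain were taken by Pearson correlation over all cells among 8499 genes, as a description, since cells share runs and differ in detected genes. Itgam ran with Ngp (0.82), Cd177 (0.81) and Ltf (0.79), and within CD11b+ GMP-P alone these were 0.59, 0.65 and 0.49. Ngp and Ltf are neutrophil secondary granule genes. Itgb2 ran with S100a9 (0.67), S100a8 (0.65) and 1100001G20Rik (0.64), the S100 pair being the calprotectin subunits, and within CD11b+ GMP-P these were 0.22, 0.16 and 0.19. The nearest for Itga4 were Ccl9 (0.61), Mrps28 (0.58) and Snrpd1 (0.53), and for Selplg Cct6a (0.53), Idh3g (0.50) and Dnajc19 (0.49). For Itgb1 (Mdp1, Nop10 and Trim28, all 0.48) and Vcam1 (Mreg at 0.47, Pxylp1 at 0.46, Mgam at 0.44) no gene reached 0.5. Within CD11b+ GMP-P the Itgb1 values were 0.06, 0.27 and 0.25, the Vcam1 values 0.63, 0.37 and 0.40, the Itga4 values 0.54, 0.64 and 0.49 and the Selplg values 0.45, 0.41 and 0.52. The correlation with the number of detected genes was −0.60 for Itgam, 0.50 for Itga4, 0.50 for Selplg and 0.44 for Itgb1 over all cells, and −0.34, 0.37, 0.45 and 0.08 within CD11b+ GMP-P. The part of detected genes in these levels was not tested.

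Among the members themselves, Itgam and Itgb2 correlated at 0.46 over all cells but at 0.03 within CD11b+ GMP-P and 0.08 within other GMP. Itga4 and Itgb1 correlated at 0.25, 0.01 and 0.12. Itgb2 and Vcam1 correlated positively in each set, at 0.37, 0.29 and 0.48.

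Other adhesion genes, taken as whole lists, were read in the same Myelo and MP cells, where 4.50% of all kept genes were higher in Myelo and 53.8% lower. Of 15 other integrin alpha chains 3 were kept, of which 0 were higher in Myelo by 1 or more and 1 was lower: Itga5, the fibronectin receptor chain, at −1.77, with Itga6 at −0.57 and Itgav at −0.38. None of 5 other beta chains was kept. Of 16 genes of integrin activation 13 were kept, 3 higher and 3 lower, with a list median of −0.21 beside −1.11 for all genes. Skap2, an adaptor in integrin signalling, was higher in Myelo (2.30). Within run R412X-GMP it was also higher than in MP in Gran-1 (2.33) and in Mono (2.11). Rasgrp2, the exchange factor that activates RAP1, was at −2.90 in Myelo minus MP and Fermt3 (kindlin-3), which binds beta chain tails, at −1.80.

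Of 13 selectins and genes of selectin ligand synthesis 10 were kept, 1 higher and 5 lower in Myelo (list median −1.12). St3gal4, a sialyltransferase for selectin ligands, was at −2.56, and Tpst2, which sulfates PSGL-1, was at 1.74. Of 11 immunoglobulin superfamily genes 6 were kept, 1 higher and 4 lower (list median −2.01). Ceacam1 averaged 7.18 ± 2.78 in Myelo and 1.52 ± 2.63 in MP (5.66), and was already at 4.29 in Gran-1 minus MP within run R412X-GMP. Icam2, a ligand of LFA-1, was at −3.29 and Pecam1 at −2.88. Of 6 genes of marrow retention and release 5 were kept, 2 higher and 2 lower. Cd177, a neutrophil surface protein that associates with Mac-1, was detected in 34 of 34 Myelo cells and 0 of 11 MP cells (10.29). Mmp9, gelatinase B, was at 4.50 and Cxcr2, a chemokine receptor of neutrophil release, at −2.31.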

How the data were processed

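The deposited expression table holds log2 values that the authors made, log2(TPM + 1) by its values: back-transformed, each cell sums to between 999517 and 1001449. Names listed in the submitters' processing notes are Bowtie2, RSEM and mm9, and the sources used here give no versions. Of all values 81.7% are 0. TPM keeps no read number, so depth is unknown and only detected genes per cell (at least 1 TPM) stand in for it. The authors' second table gives the state names, by a method that the sources used here do not give. The highest correlation between any 2 cells was 0.73, so no cell looked like a repeat of another.

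The members and lists were chosen with earlier results of these data known. Genes are named as follows: all 9 members, up to 3 genes per adhesion list with the largest absolute difference between Myelo and MP, and the 3 genes most correlated with Itgam, Itgb2, Itga4, Itgb1, Vcam1 and Selplg. A gene that this rule names is not reported here. Differences are of mean log2(TPM + 1), with a pseudocount of 1, which understates differences of low genes. With 1 sample per group no test was run. Intervals are exact (Clopper-Pearson) at 95%, a share of 0 carries the limit that 3 cells set, and both cover counting error only. The difference script was tested on simulated data. Alternatives were a pseudocount of 0.1, upper quartile scaling, the log2 ratio of mean TPM, cells with at least 2000 detected genes, Myelo-2 and Myelo-4 only, other detection limits (any TPM above 0, or 5), no filter, a difference of 2, shares of summed TPM, rank correlation and correlation within runs. Comparisons of the labelled populations and of the same states in a second run were chosen after seeing the data. Marker lists of 12 cell types were summed per cell, and those of macrophage, endothelial and stromal, progenitor and later neutrophil genes are reported. Analyses used Python 3.11.15, numpy 2.4.6, pandas 2.3.3, scipy 1.17.1 and matplotlib 3.10.9.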

Additional observations from a re-analysis of the deposited data

Results flagged for a closer look

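Itgb1 changed direction between runs in the comparison of Gran-1 with Mono. The difference was −1.24 in CD11b+ GMP-P (0.90 ± 1.56 in 3 Gran-1 cells, 2.14 ± 2.15 in 6 Mono cells) and 1.30 in other GMP (4.43 ± 3.04 in 9 Gran-1 cells, 3.13 ± 2.41 in 32 Mono cells). This change of direction was not tested, and with 3 Gran-1 cells it rests on few cells. Vcam1 and Itgb2 also turned in that comparison, with −0.44 and −0.77 in CD11b+ GMP-P and 5.09 and 3.76 in other GMP. So did, in the same order of runs, Itgam (−2.76 and 0.13), Itga4 (−1.21 and 0.79) and Cd44 (−0.72 and 1.01). Within CD11b+ GMP-P every member had a lower mean in Gran-1 than in Mono. Median detected genes there were 3463 in Gran-1 and 4434 in Mono, and their part was not tested. Mono cells of CD11b+ GMP-P had higher means of Vcam1 and Itgb2 than Mono cells of other GMP. Gran-1 cells of CD11b+ GMP-P had lower means of these 2 genes than Gran-1 cells of other GMP. Myelo set against Gran-1 and Gran-2 together kept its direction in CD11b+ GMP-P (24 and 16 cells) and late July GMP (10 and 3 cells) for Itgam (3.04 and 4.14), Vcam1 (−4.37 and −3.73) and Selplg (−2.32 and −0.41). Itgal was at 0.84 and 1.17. For Itga4 it was −0.00 and −3.34, and the sign turned for Cd44 (0.15 and −1.81), Itgb2 (−0.09 and 1.80) and Itgb1 (0.41 and −0.70).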

How the results depend on the processing

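Of the values of member differences under alternatives, 167 stayed within 1.5 times with the same sign. Another 102 did not, and 2 for differences of 1 or more reversed. Under the log2 ratio of mean TPM, 15 stayed, 45 did not and 2 reversed. Of 137 such values for differences of 1 or more in size, 2 had the opposite sign, both of Selplg under the log2 ratio of mean TPM: 0.23 in Myelo minus Gran-2 and 0.09 in Myelo-2 across runs. Of 134 for differences under 1, 18 had the opposite sign (values rounded to 2 decimals), 9 of them under that ratio, among them Itgb2 in Myelo minus Gran-2 (−0.64 and 0.25). Counts of members in Myelo minus MP and Gran-2 minus Mono stayed within 1.5 times. Gran-1 minus MP had 4 higher and 1 lower under that ratio, where Itgam counts as higher because MP is at 0. Mono minus MP had 1 higher under the ratio, Itgb7, which counts as higher because MP is at 0, and 0 from a difference of 2 on. Its lower members were 4 with a pseudocount of 0.1, 1 under upper quartile scaling and under the ratio, and 0 in cells with at least 2000 detected genes and from a difference of 2 on. Gran-1 minus Mono had 2 higher from a difference of 2 on. It had 2 lower with a pseudocount of 0.1, under the ratio and in cells with 2000 detected genes, and 0 from a difference of 2 on. Myelo minus Gran-2 had 2 higher under upper quartile scaling and in cells with 2000 detected genes, and 5 higher and 1 lower under the ratio. Myelo-2 across runs had 4 higher with a pseudocount of 0.1 and under the ratio, and 0 from a difference of 2 on. Its lower members were 2 under upper quartile scaling and in cells with 2000 detected genes, and 0 under the ratio and from a difference of 2 on. Mono across runs had 2 higher from a difference of 2 on, and 1 lower with a pseudocount of 0.1, under upper quartile scaling, under the ratio and in cells with 2000 detected genes. The cause of these moves was not tested. No paired analysis was possible because no result comes from a test. Depth is unknown, 20 of 34 Myelo cells reached 2000 detected genes, and a 0 can be a missed transcript.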

Other observations

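Single cells of the rarely seen states added values that stand in no comparison. The HSCP-1 cell had Itgb2 at 7.90, Itgb1 at 5.80 and Selplg at 7.25, with Itgam, Itga4, Vcam1 and Cd44 at 0.00. The MDP cell had Selplg at 9.35, Cd44 at 8.46, Itgal at 5.38 and Itga4 at 2.32, with Itgam at 0.51 and Vcam1 at 0.00. The Myelo-3 cell, with 967 detected genes, had Itgb2 at 6.41 and every other member below 1. Of the 2 Multi-Lin cells, 1 had Itgam at 6.46 without Itgb2, and Itgb7 reached 9.44 in this state, the highest Itgb7 value of any cell.

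Several adhesion genes outside the 9 differed along the granulocytic states in steps of their own, with state tied to run as above. Ceacam1, a carcinoembryonic antigen family receptor of neutrophils, averaged 1.52 in MP, 5.44 in Gran-1, 6.51 in Gran-2, 7.48 in Myelo-2 and 7.09 in Myelo-4. Mmp9 averaged 0.69 in Gran-2, 3.23 in Myelo-2 and 9.13 in Myelo-4, and Cd177 5.21 in Gran-2 and 10.85 in Myelo-4. Fermt3 averaged 6.78 in Gran-1, 7.04 in Gran-2, 3.57 in Myelo-2 and 5.73 in Myelo-4.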
